A study of Rattus norvegicus with 78 samples.

Results

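Time without a toxicant was examined in sperm of the vehicle-treated rats of a study of dibromochloropropane (DBCP), a soil fumigant known to damage the testis. The comparison held 39 of the 78 arrays of the series: 19 arrays of corn oil rats after a recovery period against 20 arrays of corn oil rats at the end of the exposure period, chosen by their labelled group. All rats were of the Fischer 344 strain and were dosed for 3 months, the corn oil rats with the vehicle and the DBCP rats with 5 mg/kg/day of DBCP. RNA came from sperm that diffused out of the punctured cauda epididymis, the tail of the epididymis where sperm are stored, after a lysis step with ammonium chloride, and the large RNA fraction was biotin-labelled. Each array was labelled as a biological replicate, numbered 1 to 20 within its group, with 1 number not held by the recovery group. How long the recovery lasted is not stated in the labels. The rats' age, the time since dosing and the time of collection go together with the group and cannot be told apart.

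Sperm are made in the testis, where round spermatids shut down transcription while histones are replaced by transition proteins and then by protamines, so much of sperm RNA is a remnant of transcripts stored in late spermatids. In the epididymis, principal cells secrete defensins, lipocalins and other proteins onto the sperm surface, clear cells acidify the lumen with a proton pump, and T cells, natural killer cells, macrophages and dendritic cells lie in and under the epithelium. A sperm preparation from a punctured cauda can carry RNA of those cells as well. In bulk RNA a smaller number of cells of a type and less RNA per cell cannot be told apart.

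The deposited values were log2 signals of 29214 probe sets, of which 15310 carried 1 gene symbol and stood for 14506 genes. Median signal per array lay between 6.65 and 6.75 at the end of exposure and between 6.59 and 6.74 at recovery, and pairs of corn oil arrays correlated with r from 0.894 to 0.988 across probe sets. The defining sperm genes were bright in both groups: Odf1, an outer dense fibre protein of the tail, read 13.89 to 14.22 at the end and 13.84 to 14.23 at recovery, Smcp, a mitochondrial capsule protein, read 13.92 to 14.29 and 13.87 to 14.22, and protamine 1 (Prm1) read 12.29 to 13.43 and 12.37 to 13.26. None of these 3 passed the test, with differences of 0.01, -0.05 and -0.12 on the log2 scale and adjusted p of 0.920, 0.185 and 0.208. The highest value of the whole table was 14.69. Recovery replicate 11 stood apart with a limma array weight of 0.329, and the text gives its effect where a call rests on it.

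Recovery sperm differed from end-of-exposure sperm in a broad set of genes, by small amounts. Genes of late spermatids, above all those of the tail and of chromatin packing, were lower at recovery. Higher were genes of natural killer and T cells, antigen presentation, ribosomes, the respiratory chain, the endoplasmic reticulum and the vacuolar proton pump. In limma with Benjamini-Hochberg adjustment, 7108 of the 29214 probe sets passed an adjusted p of 0.05, which is 24.3%, with 3370 higher and 3738 lower at recovery. Among genes, 2314 of 14506 rose (16.0%) and 1787 fell (12.3%), and these 2 shares are the first background for each gene list below. The genes that rose did so by a median of 0.28 on the log2 scale (0.10 to 1.25), and those that fell by a median of -0.17 (-1.08 to -0.07); all genes together had a median difference of -0.02 and a median SE of 0.06. Over the whole array, 6 of the probe sets that passed differed by 2-fold or more.

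The split between higher and lower calls depended on the scaling and on which probe sets were counted. Quantile normalization gave 3602 higher and 3017 lower probe sets, and centring each array on its median gave 3850 higher and 2218 lower. Probe sets with 1 gene symbol split into 2481 higher and 1845 lower, while those with no symbol or several split into 889 higher and 1893 lower. Of the 222 genes chosen for naming, 221 kept the sign of their difference under both scalings, the exception being Mgmt, which did not pass.

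The share of genes that rose also depended on their signal. In 5 equal groups by mean signal, from the dimmest to the brightest, 6.86%, 8.86%, 12.9%, 17.3% and 33.8% of genes rose, and 6.62%, 14.6%, 15.9%, 14.3% and 10.2% fell. With each array centred on its median, 3.17%, 7.65%, 8.76%, 8.45% and 6.89% fell. Counts of falls after centring are read against these lower shares. A list of bright genes is therefore also read against the brightest group. Of the ribosomal protein genes described below, 65 of 72 lay in it, and 30 of these rose. In that group 25 of 35 respiratory chain genes, 13 of 17 genes of entry into the endoplasmic reticulum, 10 of 12 basal and clear cell genes, 9 of 11 T and natural killer cell genes and 13 of 21 macrophage genes rose. So did 16 of 26 antioxidant genes, 10 of 17 chaperone genes, 6 of 9 class II genes and 7 of 16 ubiquitin-conjugating enzyme genes. Falls in the brightest group took in 5 of its 6 fibrous sheath genes, 7 of its 14 chromatin genes, 6 of its 9 Spata genes and 4 of its 12 dense fibre genes, while none of its 7 axonemal genes passed.

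**Figure D1:**
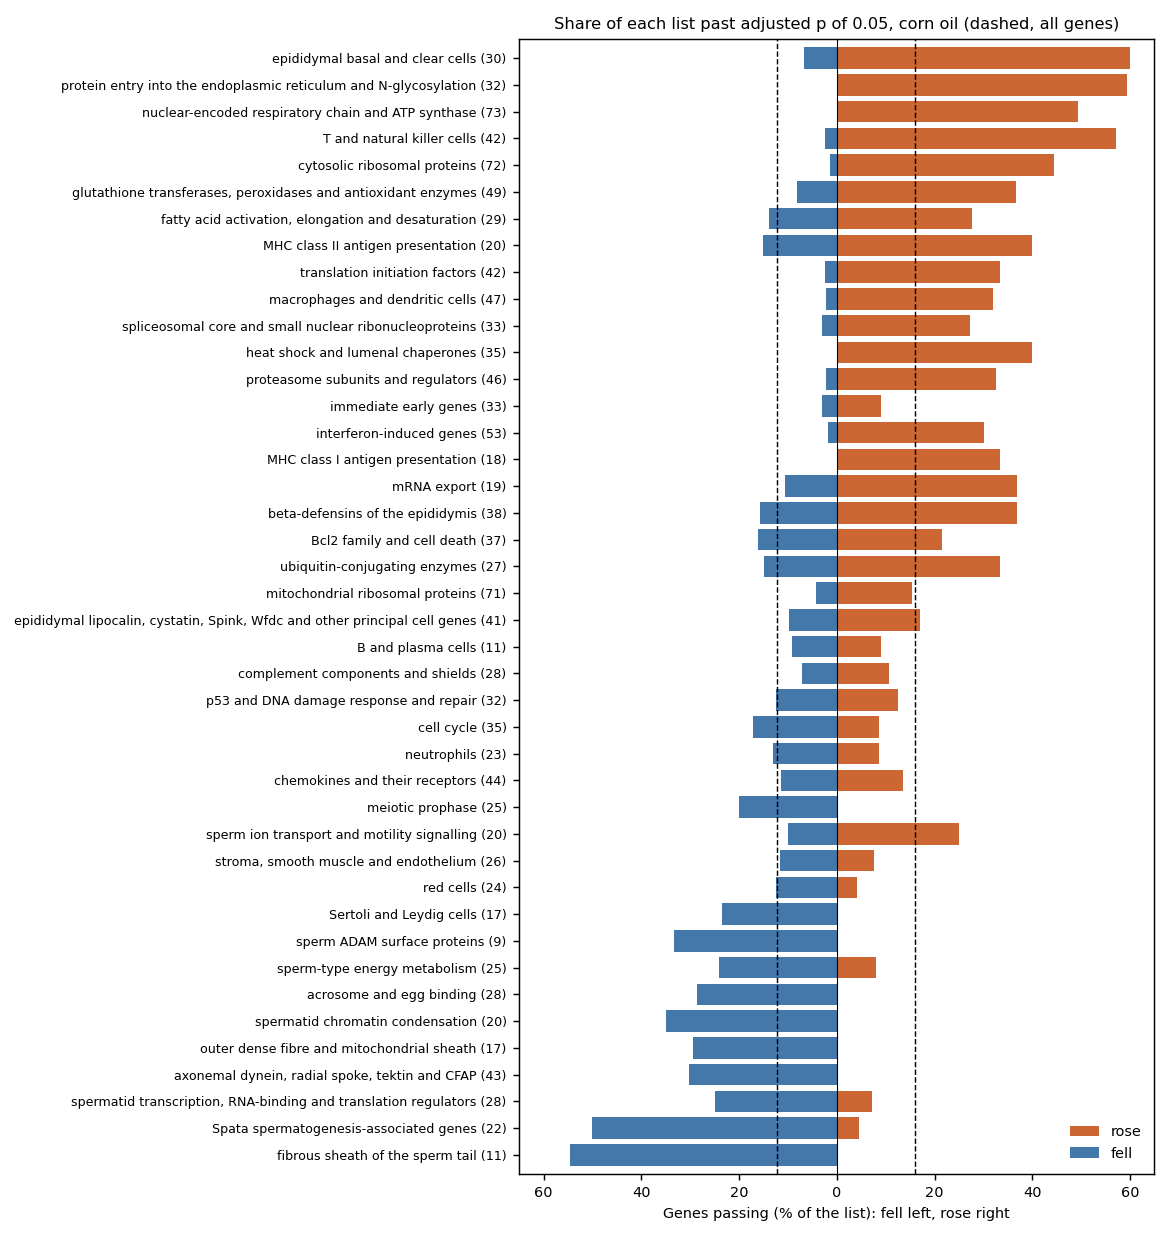
Share of each of 42 gene lists that passed an adjusted p of 0.05 in corn oil rats, as percent of the list's genes on the array (number in brackets), with genes that fell drawn to the left and genes that rose to the right; lists are ordered by their median difference. The dashed lines mark all genes (12.3% fell, 16.0% rose): sperm tail lists reach past the left line with almost no bar on the right, and the basal and clear cell, endoplasmic reticulum, T and natural killer cell and respiratory chain lists reach past the right line.

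Genes of spermatid chromatin were lower at recovery. Of 20 such genes on the array, 7 fell and none rose, with a median difference of -0.13, against -0.02 over all genes. Transition protein 1 (Tnp1), which replaces histones in the elongating spermatid before the protamines take over, ran from 8.90 through a median of 10.36 to 11.81 at the end of exposure and from 8.66 through 9.69 to 10.59 at recovery. It fell by 0.87 ± 0.22 (SE) on the log2 scale, a 1.83-fold lower signal (adjusted p = 0.00272), and 18 of the 19 recovery arrays lay under the mean of the end arrays, although the 2 groups overlapped. Protamine 2 (Prm2) fell by 0.54 ± 0.17 (adjusted p = 0.0161), and Hmgb4, a high mobility group protein of the testis, by 0.67 ± 0.15 (adjusted p = 0.000580). The linker histone of spermatids H1f7 fell by 0.38 ± 0.11, and Tssk6, a spermatid kinase needed in mice for the exchange of histones, fell by 0.52 ± 0.16. Transition protein 2 (Tnp2) did not pass, with 11.35 as its median in both groups and a difference of 0.15 ± 0.14. The fall of this group was thus carried by Tnp1, Prm2, Hmgb4, Tssk6, H1f7, Tssk4 and Prm3, not by Prm1 or Tnp2.

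The promoter of Tnp1 is shown because spermatid genes of this kind are known to be switched on through a cyclic AMP response element, bound in round spermatids by the activator CREM. In RefSeq (build GRCr8) the window from 250 bases before to 50 bases after the start of Tnp1 is chr9:82044229-82044528 on the minus strand, with the element TGACGTCA in capitals at position -113 from the start.
Tnp1: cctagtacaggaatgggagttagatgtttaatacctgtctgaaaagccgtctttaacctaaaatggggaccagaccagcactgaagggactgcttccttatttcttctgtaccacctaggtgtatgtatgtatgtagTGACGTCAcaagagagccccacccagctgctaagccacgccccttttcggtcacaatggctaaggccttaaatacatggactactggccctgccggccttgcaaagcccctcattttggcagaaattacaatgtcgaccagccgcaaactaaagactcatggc
The element, which reads the same on both strands, was found in 1.83% of 33469 promoter windows of that length. Among the 15 genes with the largest falls, 14 had a window and 1 of them, Tnp1, held it. Over the chromatin, fibrous sheath, dense fibre and Spata lists together it was in 2 of 68 windows (2.94%), and it was also in 1 of the 8 class II genes that rose, RT1-Ba, whose window is printed below with these letters in lower case. In the other windows these letters were not found, which says nothing of whether the factor acts there.

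Fibrous sheath genes had the largest share of falls among the 42 lists. Of 11 on the array, 6 fell and none rose (median -0.31); the sheath surrounds the principal piece of the tail and anchors its glycolytic enzymes. Akap4, its main scaffold protein, ran from 8.63 through 10.01 to 11.06 at the end and from 8.35 through 9.14 to 9.94 at recovery. All 19 recovery arrays lay under the mean of the end arrays, and Akap4 fell by 0.72 ± 0.19 (1.65-fold, adjusted p = 0.00371). Spa17, a sheath protein with a domain that binds A-kinase anchoring proteins, fell by 0.77 ± 0.17 (1.71-fold, adjusted p = 0.000520). Gapdhs, the sperm form of glyceraldehyde-3-phosphate dehydrogenase, fell by 0.56 ± 0.15, Lrrc46 by 0.65 ± 0.16, Fscb by 0.51 ± 0.14 and Akap3 by 0.31. Lactate dehydrogenase C (Ldhc), the sperm isoenzyme, did not pass at -0.30 ± 0.15 (adjusted p = 0.129).

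Spata19, a mitochondrial protein of the tail's midpiece, showed the largest fall of any gene. It ran from 7.47 through 9.20 to 10.77 at the end and from 7.05 through 8.19 to 8.76 at recovery, and fell by 1.08 ± 0.25 (2.11-fold, adjusted p = 0.00118). Every recovery array was under the end mean, and 2 were under all 20 end arrays. In its list of 17 dense fibre and mitochondrial sheath genes, 5 fell and none rose (median -0.13). The others were Spem1 at -0.64 ± 0.15, which is needed in mice to strip cytoplasm from the spermatid head, Cby2 at -0.62 ± 0.19, Odf4 at -0.42 ± 0.14 and Spata18 at -0.37 ± 0.12. The 2 brightest members, Odf1 and Smcp, were the ones near the top of the scale described above, without a difference that passed.

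Axonemal genes moved in the same direction by smaller amounts. Of 43 on the array, 13 fell and none rose (median -0.13, lowest -0.34). Under quantile normalization 13 fell as well, and with each array centred on its median 8 did. Drc7, of the nexin-dynein regulatory complex that coordinates tail bending, ran from 6.76 through 6.97 to 7.25 at the end and from 6.30 through 6.67 to 6.90 at recovery, where 15 of 19 arrays were under every end array. It fell by 0.28 ± 0.05 (adjusted p = 2.89e-05). The dynein heavy chain genes Dnah10 and Dnah1, which code for motors of the axoneme, fell by 0.18 ± 0.04 and 0.15 ± 0.04, and Cfap52 and Cfap45, proteins inside the axonemal microtubules, by 0.20 ± 0.05 and 0.18 ± 0.05.

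Genes for the sperm head surface and for energy supply were also lower on balance. Of 28 acrosome and egg-binding genes, 8 fell and none rose (median -0.12). Under quantile normalization 10 of them fell, and with each array centred on its median 4 did, against the lower background after centring given above. Ace, angiotensin-converting enzyme, whose short form is made in spermatids, ran from 7.72 through 8.20 to 8.69 at the end and from 7.39 through 7.70 to 8.06 at recovery; it fell by 0.44 ± 0.10 (1.35-fold, adjusted p = 0.000876), and 10 recovery arrays lay under every end array. Crisp2, a protein of acrosome and tail, fell by 0.49 ± 0.15. Of 9 ADAM genes, which code for sperm surface proteins involved in migration and egg binding, 3 fell and none rose: Adam5 by 0.50 ± 0.15, Adam3a by 0.45 ± 0.16 and Adam1a by 0.22 ± 0.06. Adam3a no longer passed without end replicate 4. In sperm-type energy metabolism 6 of 25 fell and 2 rose (median -0.12). The nucleotidase Nt5c1b fell by 0.79 ± 0.15 (1.73-fold, adjusted p = 0.000116) and the acyl-CoA synthetase Acsbg2 by 0.58 ± 0.15, while the glycolytic enzyme Tpi1 rose by 0.37 ± 0.11 and the ATP synthase subunit Atp5f1b by 0.46 ± 0.14. The 2 that rose are genes of every cell.

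Ion transport and motility signalling genes were mixed, with 5 of 20 higher and 2 lower. Atp1a4, the sodium pump subunit of sperm, ran from 7.12 through 7.96 to 8.87 at the end and from 6.99 through 7.36 to 7.83 at recovery, a fall of 0.63 ± 0.16 (1.55-fold, adjusted p = 0.00219). Adcy10, the soluble adenylyl cyclase that raises cyclic AMP in sperm, fell by 0.23. The genes that rose, Ppp1r11 (0.44 ± 0.09), Gsk3a (0.37 ± 0.09), Ppp3cc (0.26), Atp2b4 (0.18 ± 0.04) and Prkaca (0.16 ± 0.05), code for phosphatase, kinase and calcium pump proteins, most of which other cells make too.

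Regulators of spermatid gene expression fell in 7 of 28 cases and rose in 2 (median -0.14). Ubqlnl, a ubiquilin-like gene of the testis, fell by 0.74 ± 0.16 and Lrrc18 by 0.67 ± 0.15; Piwil1, which binds the small RNAs that silence transposons, fell by 0.20 ± 0.04 and Dnajb13, a radial spoke protein of the tail, by 0.26 ± 0.07. The 2 that rose were the widely expressed RNA-binding proteins Elavl1 (0.24 ± 0.06) and Celf1 (0.25). Of 22 genes named for spermatogenesis (Spata), 11 fell and 1 rose (median -0.19). Spata18 and Spata19 are among these falls and among those of the dense fibre list above. Spata32 fell by 0.73 ± 0.17, Spata6 by 0.69 ± 0.16, Spata31f3 by 0.78 ± 0.21 and Spata20 by 0.58 ± 0.15. The 1 that rose, Afg2a (0.24 ± 0.06), was formerly Spata5 and codes for an AAA-ATPase used in ribosome assembly. Spata6, needed in mice to join head and tail, ran from 8.82 through 9.95 to 11.04 at the end and from 8.44 through 9.37 to 9.79 at recovery.

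Genes of earlier germ cells and of the somatic cells of the testis showed fewer and smaller falls. Of 25 meiotic prophase genes 5 fell and none rose, with a median of -0.04: Mael, which protects the germ line from transposons, fell by 0.58 ± 0.17, and the meiotic cohesin genes Stag3 and Rec8 by 0.27 ± 0.07 and 0.22 ± 0.05. Of 17 Sertoli and Leydig cell genes 4 fell and none rose (median -0.08, lowest -0.21), among them the steroid-forming enzymes Cyp11a1 (-0.18 ± 0.05) and Cyp17a1 (-0.16 ± 0.06). The 4 differences were at most 1.13-fold, and Cyp17a1 lost its call in 4 and Rhox5 (-0.09 ± 0.03) in 8 of the 39 fits that left out 1 array each. Syce1, the smallest of the meiotic falls at -0.14 ± 0.05, lost it in 12. Under quantile normalization 2 of the 17 Sertoli and Leydig cell genes fell, and with median centring 1 did, again against the lower background after centring. Of the meiotic genes 4 fell under either scaling. Both lists were dim: their mean signals were 6.52 and 6.30 at the end, where array medians averaged 6.70. At recovery they were 6.44 and 6.23, where array medians averaged 6.67.

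Several of the 15 largest falls were in genes of no list. Ms4a14 ran from 8.06 through 9.59 to 10.96 at the end and from 7.93 through 8.66 to 9.56 at recovery, a fall of 0.83 ± 0.23 (1.78-fold, adjusted p = 0.00570). Garin1a, a Golgi protein that binds RAB2, fell by 0.74 ± 0.15 and Phkg2, a catalytic subunit of phosphorylase kinase, by 0.70 ± 0.15. Fam229b fell by 0.73 ± 0.18 and Bpifa3 by 0.72 ± 0.15. For Garin1a, Phkg2, Fam229b and Bpifa3 every recovery array lay under the mean of the end arrays, and for Ms4a14 17 of 19 did.

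**Figure D2:**
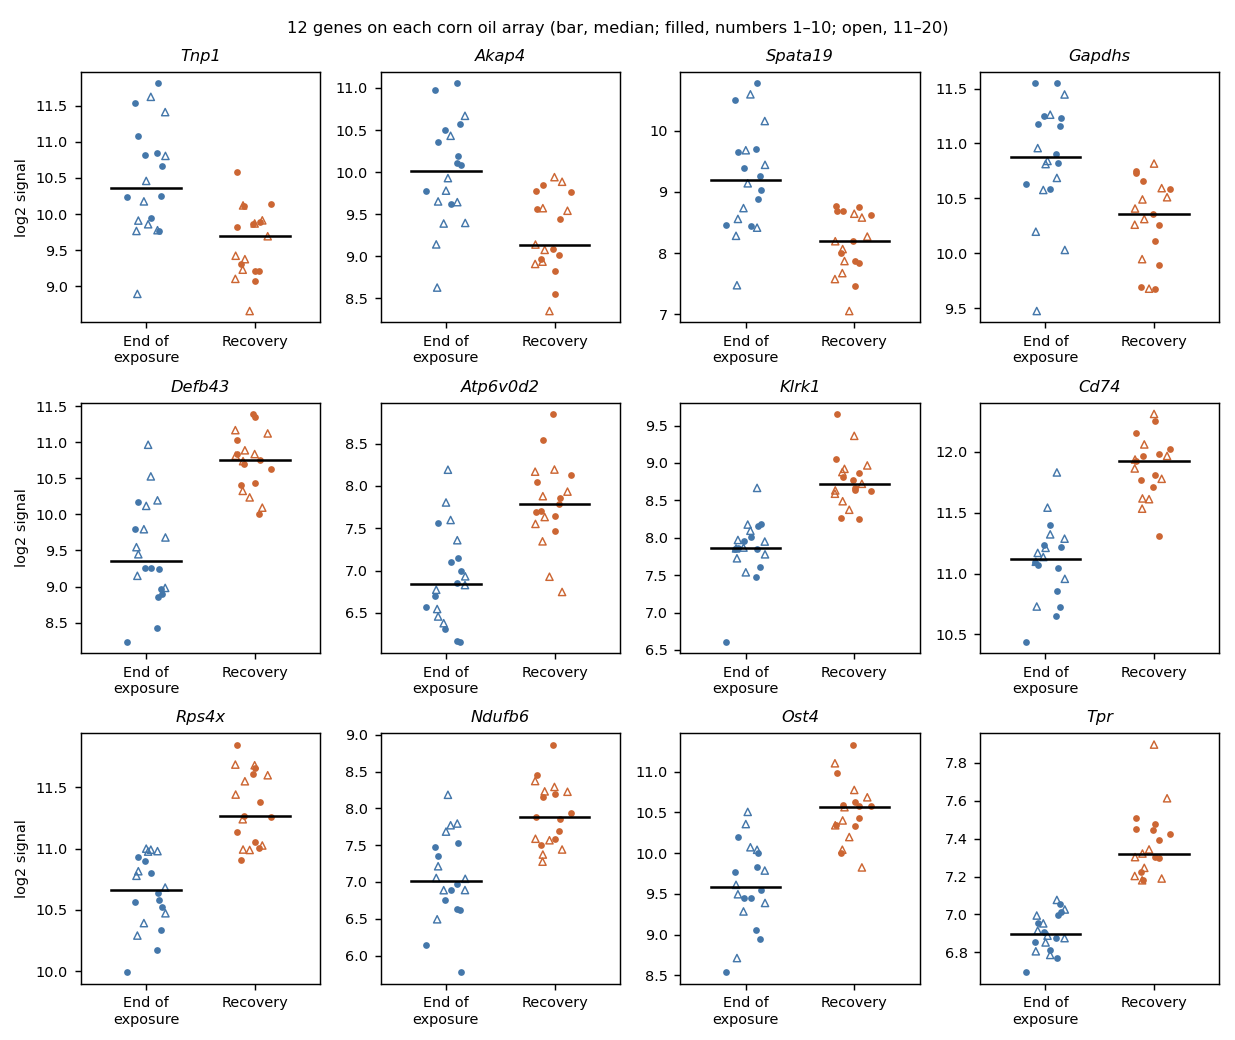
Log2 signal (vertical axis) of 12 genes on each corn oil array at the end of exposure (20 arrays, blue) and at recovery (19 arrays, orange); bars are medians, filled circles are replicate numbers 1 to 10 and open triangles numbers 11 to 20. Tnp1, Akap4, Spata19 and Gapdhs sit lower at recovery with overlap, the 7 genes from Defb43 to Ost4 sit higher with overlap, and Tpr alone has no overlap.

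Whether the late spermatid genes and the genes that rose varied together from array to array was examined within each group, with Akap4 set against 8 genes in 2 groups, which makes 16 relations chosen after their values were seen. Spata19 followed Akap4 closely. At the end of exposure (n = 20) Pearson's r was 0.845 and Spearman's rho 0.799. Their two-sided permutation p, from 100000 permutations, were 2e-05 and 6e-05 (adjusted 0.00016 and 0.00048). Without the 2 arrays farthest from the median of Akap4, r was 0.744. At recovery (n = 19) r was 0.889 and rho 0.846, with permutation p of 2e-05 and 5e-05 (adjusted 0.00016 and 0.00048), and r was 0.846 without the 2 farthest. None of the other 14 relations passed: for Klrk1, Cd74, Rps4x, Uqcrh, Atp6v0d2, Defb43 and Ost4 r lay between -0.08 and 0.32 at the end and between 0.03 and 0.42 at recovery. Akap4 was lower and these 7 genes were higher at recovery, and no relation between their arrays passed within either group. With 19 or 20 arrays a relation can be present without passing, and both sets of replicate numbers were pooled. Whether the 2 differences share a source was not tested.

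Epididymal genes were split by family. Of 38 beta-defensins, antimicrobial peptides of which many coat sperm, 14 rose and 6 fell. Defb43 had the largest rise of any gene: it ran from 8.24 through 9.35 to 10.96 at the end and from 10.00 through 10.75 to 11.39 at recovery. The difference was 1.25 ± 0.18, 2.37-fold (adjusted p = 6.84e-07), with every recovery array over the end mean and 5 over every end array. Defb39 rose by 0.88 ± 0.19, Defb49 by 0.84 ± 0.13, Defb11 by 0.68 ± 0.11 and Defb9 by 0.60 ± 0.11. In the other direction, Defb26 fell by 0.62 and Defb22, a sperm-coating defensin, by 0.37 ± 0.07, with 12 of 19 recovery arrays under every end array for Defb22. The median of the list was 0.05, and in replicate numbers 11 to 20 alone it was -0.05, where 1 member rose and 2 fell.

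Principal cell genes other than defensins rose in 7 of 41 cases and fell in 4, shares close to the background, with a median of 0.00 whose sign turned with the scaling. Cd52, a glycoprotein transferred to sperm in the epididymis and made by lymphocytes too, ran from 10.22 through 11.29 to 12.15 at the end and from 11.57 through 12.06 to 12.61 at recovery, a rise of 0.72 ± 0.13 (1.65-fold, adjusted p = 6.12e-05). Ptgds, a prostaglandin D synthase of the lipocalin family, rose by 0.71 ± 0.15 and the water channel gene Aqp9 by 0.32 ± 0.07. Lcn2 fell by 0.28 ± 0.06, with 13 recovery arrays under every end array. Crisp1, a secreted protein that binds sperm, fell by 0.43 ± 0.16 (adjusted p = 0.0394); it lost its call in 11 of the 39 fits that left out 1 array each, among them that without recovery replicate 11, and its difference was -0.21 in numbers 1 to 10 and -0.65 in numbers 11 to 20.

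The list of basal and clear cell genes had the largest share of rises among the 42. Of 30 genes 18 rose and 2 fell (median 0.22). Of the 18 that belong to the vacuolar proton pump, 15 rose and none fell, with a median of 0.33, and of the other 12 genes 3 rose and 2 fell; this division was made after the values were seen. Atp6v0d2, a pump subunit, ran from 6.16 through 6.84 to 8.19 at the end and from 6.75 through 7.78 to 8.85 at recovery, a rise of 0.87 ± 0.16 (1.83-fold, adjusted p = 6.01e-05). Atp6v1d rose by 0.82 ± 0.15, and 9 recovery arrays were over every end array. Foxi1, the transcription factor that drives pump genes in clear cells, rose by 0.65 ± 0.14, whereas the basal cell keratins Krt14 and Krt15 fell by 0.18 and 0.14. Many pump subunits serve lysosomes in every cell, so they do not mark clear cells alone. Stromal, muscle and endothelial genes showed 2 rises and 3 falls among 26: Dcn, a proteoglycan of connective tissue, rose by 0.73 ± 0.15 and vimentin (Vim) by 0.47 ± 0.12, while Col4a1 fell by 0.22 ± 0.05, Col1a1 by 0.15 ± 0.05 and Kdr by 0.11 ± 0.04; Kdr lost its call in 20 of the 39 fits without 1 array.

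**Figure D3:**
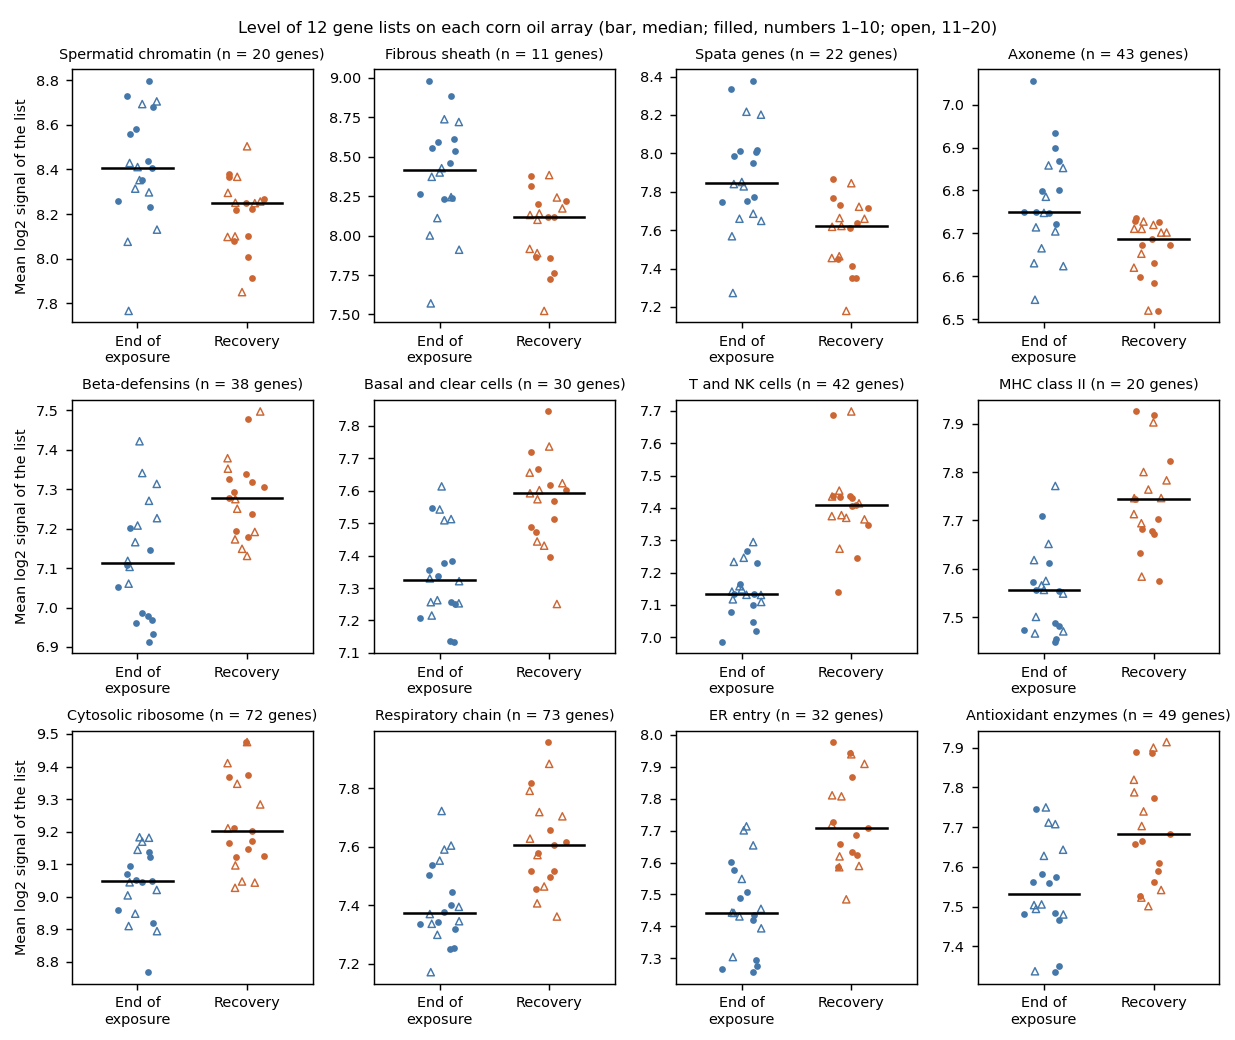
Mean log2 signal over the genes of 12 lists (vertical axis) on each corn oil array, at the end of exposure (blue, 20 arrays) and at recovery (orange, 19 arrays), with medians as bars, numbers 1 to 10 as filled circles and numbers 11 to 20 as open triangles. The 4 spermatid lists of the top row sit lower at recovery and the other 8 sit higher; the groups overlap in every panel.

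Genes of T and natural killer cells were higher at recovery. Of 42 on the array 24 rose and 1 fell (median 0.18), and their mean signal ran from 6.99 through 7.13 to 7.29 at the end and from 7.14 through 7.41 to 7.70 at recovery, with 18 of 19 recovery arrays over the end mean. Klrk1, the activating receptor NKG2D of natural killer cells, ran from 6.61 through 7.87 to 8.67 and from 8.25 through 8.72 to 9.65. It rose by 0.91 ± 0.11 (1.87-fold, adjusted p = 1.2e-08), and 10 recovery arrays exceeded every end array. Cd7, a surface protein of T and natural killer cells, rose by 0.84 ± 0.10 from a median of 9.23 to 10.08, with 16 recovery arrays over all end arrays. Receptor genes of the natural killer complex rose together: Klrc3 by 0.78 ± 0.09, Klrb1c by 0.69 ± 0.08 and Klrd1 by 0.64 ± 0.08. So did effectors, with Prf1, which makes pores in target cells, at 0.63 ± 0.09, the granzyme Gzma at 0.71 and the chemokine Ccl5 at 0.60 ± 0.08. The T cell receptor chains moved less: Cd3g rose by 0.25 and Cd3e by 0.23, and Cd3d fell by 0.14. No gene of the list passed as lower under quantile normalization or median centring. Nor did any without the arrays of low weight or in either set of replicate numbers alone. Natural killer receptor genes are a family of near copies, and signal may be shared between their probe sets.

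Macrophage and dendritic cell genes rose in 15 of 47 cases and fell in 1 (median 0.10). Fcer1g, the signalling chain of several Fc receptors, ran from 8.37 through 9.10 to 9.85 at the end and from 9.33 through 9.96 to 10.64 at recovery, a rise of 0.91 ± 0.12 (1.88-fold, adjusted p = 6.28e-08). Clec7a, the receptor for fungal glucans, rose by 0.84 ± 0.11, and 15 recovery arrays were over every end array. Stap1, an adaptor protein of blood cells, rose by 0.96 ± 0.17, Cd53 by 0.63 ± 0.11, the actin-bundling Lcp1 by 0.60 ± 0.10 and Cx3cr1, the fractalkine receptor of resident phagocytes, by 0.39 ± 0.07. The general leukocyte marker Ptprc (CD45) rose by 0.56.

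Antigen presentation through class II rose in its peptide-binding genes but not in its regulator. Of 20 class II genes 8 rose and 3 fell (median 0.11). Cd74, the invariant chain that guides class II molecules, ran from 10.44 through 11.12 to 11.83 at the end and from 11.31 through 11.92 to 12.31 at recovery, a rise of 0.77 ± 0.10 (1.71-fold, adjusted p = 3.26e-08), with 11 recovery arrays over every end array. The class II chains RT1-Da, RT1-Bb and RT1-Ba rose by 0.62 ± 0.11, 0.62 ± 0.10 and 0.61 ± 0.09, and RT1-DMa, which loads peptides, by 0.30 ± 0.06. The lysosomal proteases Ctss and Lgmn rose by 0.45 and 0.40. Those that fell were Ciita, the transactivator of class II genes, by 0.16, and the costimulatory molecules Cd86 and Cd40 by 0.17 and 0.14. These falls depended on the scaling: 2 genes of the list fell under quantile normalization and 1 with median centring, while 8 rose under both.

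Promoters of 3 class II chains are shown because class II genes share a compact promoter in which an inverted CCAAT box, the Y box bound by NF-Y, lies next to the X box bound by RFX. The windows run from 250 bases before to 50 bases after the start in RefSeq (GRCr8), and CCAAT or its complement ATTGG is in capitals. RT1-Ba is at chr20:4576807-4577106 on the plus strand with the box at -43, RT1-Da at chr20:4515165-4515464 on the plus strand with the box at -49, and RT1-Bb at chr20:4604069-4604368 on the minus strand with boxes at -172 and -61.
RT1-Ba: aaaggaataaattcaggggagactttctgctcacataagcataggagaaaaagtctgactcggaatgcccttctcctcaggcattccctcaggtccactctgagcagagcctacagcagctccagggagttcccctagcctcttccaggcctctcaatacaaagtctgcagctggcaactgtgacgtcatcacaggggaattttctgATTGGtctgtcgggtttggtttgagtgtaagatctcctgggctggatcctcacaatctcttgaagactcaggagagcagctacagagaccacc
RT1-Da: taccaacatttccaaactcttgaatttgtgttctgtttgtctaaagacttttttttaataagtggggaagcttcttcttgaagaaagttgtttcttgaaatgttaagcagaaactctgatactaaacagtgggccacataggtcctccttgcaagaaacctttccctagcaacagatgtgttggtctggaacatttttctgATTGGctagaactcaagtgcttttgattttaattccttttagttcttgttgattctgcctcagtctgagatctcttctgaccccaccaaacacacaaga
RT1-Bb: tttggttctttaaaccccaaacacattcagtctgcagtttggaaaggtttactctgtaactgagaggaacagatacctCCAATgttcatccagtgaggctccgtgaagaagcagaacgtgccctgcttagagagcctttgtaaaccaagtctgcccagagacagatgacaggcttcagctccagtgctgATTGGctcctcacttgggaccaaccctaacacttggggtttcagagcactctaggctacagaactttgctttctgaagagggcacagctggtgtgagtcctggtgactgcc
On either strand CCAAT was present in the windows of 8 of the 8 class II genes that rose and in 14 of 19 windows of the whole list (17 of its genes had one), against 37.5% of 33469 windows and 6 of 14 windows of the largest falls. A match may overlap one of the cyclic AMP response element above, and each motif was counted separately. These are matches of letters, not measured binding.

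Class I presentation and interferon-induced genes rose at shares above the background, by small medians against -0.02 over all genes; 19 and 18 of the 19 recovery arrays lay over the end mean in the mean signal of the 2 lists. Of 18 class I genes 6 rose and none fell (median 0.06): B2m, the light chain of class I molecules, went from a median of 11.43 to 11.94 and rose by 0.55 ± 0.10, and Erap1, which trims peptides, rose by 0.35 ± 0.06. Of 53 interferon-induced genes 16 rose and 1 fell (median 0.06), led by the guanylate-binding protein gene Gbp5 at 0.56 ± 0.07 (adjusted p = 5.86e-08), with 15 recovery arrays over every end array, the exonuclease Isg20 at 0.52 ± 0.10 and the GTPase Ifi47 at 0.38 ± 0.07.

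The chemokine, complement, B cell, neutrophil and red cell lists rose at shares under the background of 16.0%. Chemokines and their receptors rose in 6 of 44 cases and fell in 5: the monocyte receptor Ccr2 rose by 0.54 ± 0.09 and the lymphocyte chemokine Xcl1 by 0.31 ± 0.05, and Ccl25 fell by 0.23 ± 0.06. Complement genes rose in 3 of 28 cases and fell in 2, with Cd59b, which blocks the membrane attack complex, at 0.96 ± 0.13 (1.95-fold, adjusted p = 2.14e-07) and 17 recovery arrays over every end array, and the phagocyte gene C1qc at 0.37 ± 0.08. Of 11 B cell genes 1 rose (Blnk, 0.34 ± 0.08) and 1 fell (Cd79b, -0.15 ± 0.05). Of 23 neutrophil genes 2 rose and 3 fell: lactoferrin (Ltf), which epithelia make too, rose by 0.63 ± 0.14 and Mmp9 by 0.39 ± 0.08, while Mpo, Cxcr1 and Ngp fell by 0.20 ± 0.05, 0.17 ± 0.06 and 0.16 ± 0.06. Without 1 array the calls were lost for Cxcr1 in 7, Ngp in 21, Cd79b in 2 and the complement genes Vtn (-0.14 ± 0.05) in 15 and Cr1l (0.17 ± 0.06) in 1 of 39 fits, the last without recovery replicate 11. Of 24 red cell genes 1 rose and 3 fell (median -0.05), and the mean signal of that list ran from 6.91 through 7.07 to 7.26 at the end and from 6.94 through 7.07 to 7.13 at recovery.

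Cytosolic ribosomal protein genes rose in 32 of 72 cases and fell in 1 (median 0.16), and 18 of 19 recovery arrays had a mean signal of the list over the end mean. Rps4x ran from 9.99 through 10.66 to 11.00 at the end and from 10.91 through 11.26 to 11.85 at recovery, a rise of 0.69 ± 0.12 (1.61-fold, adjusted p = 1.53e-05), with 16 recovery arrays over every end array. Rpl28 rose by 0.63 ± 0.10 (0.30 to 0.63 over its 3 probe sets), Rpl7 by 0.55 ± 0.08 and Rpl19 by 0.52 ± 0.08. By subunit, 22 of 44 large-subunit genes and 9 of 27 small-subunit genes rose, a division made after the values were seen. Ribosomal protein genes have many processed copies in the genome, so the source of a probe set's signal is less certain here. On the same arrays the T and natural killer cell, the basal and clear cell (through its proton pump genes) and the macrophage lists were higher (18 of 19 recovery arrays over the end mean for each), and their part in the rise of ribosomal and other housekeeping genes was not tested.

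Translation factors, mRNA export and splicing followed at lower shares. Of 42 initiation factor genes 14 rose and 1, Eif4e, fell. In the brightest signal group 7 of 22 of them rose, no larger a share than the 33.8% of all genes there. In that group 4 of 5 mRNA export genes and 3 of 7 spliceosome genes rose. Pdcd4, an inhibitor of the initiation helicase, ran from 7.16 through 8.63 to 9.32 at the end and from 9.04 through 9.33 to 10.04 at recovery, a rise of 0.92 ± 0.13 (1.89-fold, adjusted p = 5.91e-07). Eif2s3, the gamma subunit of the factor that brings the initiator tRNA, rose by 0.89 ± 0.13, with 14 recovery arrays over every end array, and Eif4g2 by 0.61 ± 0.12. In mRNA export 7 of 19 rose and 2 fell: Sarnp, a member of the export complex, went from a median of 8.83 to 9.85, a rise of 1.00 ± 0.15 (adjusted p = 2.9e-06). Of 33 spliceosome genes 9 rose and 1 fell, with Sf3b1 at 0.53 ± 0.09 and Prpf8 at 0.34 ± 0.08.

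The gene with the smallest p of all, and the only one whose groups did not overlap (1 of 14506 genes, 0.00689%), was Tpr, which codes for the basket protein of the nuclear pore. Tpr ran from 6.70 through 6.90 to 7.08 at the end of exposure and from 7.18 through 7.32 to 7.90 at recovery. Its rise was 0.46 ± 0.05 (1.38-fold, adjusted p = 2.39e-11), 0.48 in numbers 1 to 10 and 0.45 in numbers 11 to 20. Lpar6, a receptor for lysophosphatidic acid, rose by 0.77 ± 0.09 with 18 of 19 recovery arrays over every end array, and the splicing factor gene Prpf39 by 0.47 ± 0.06.

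Nuclear genes of the respiratory chain and ATP synthase rose in 36 of 73 cases and none fell (median 0.18). Ndufb6, of complex I, ran from 5.77 through 7.01 to 8.18 at the end and from 7.28 through 7.89 to 8.87 at recovery, a rise of 0.86 ± 0.17 (1.82-fold, adjusted p = 0.000176). Uqcrh of complex III rose by 0.70 ± 0.11, with 14 recovery arrays over every end array, Ndufc2 by 0.57 ± 0.11, Cox6c by 0.56 ± 0.10 and Cox8a by 0.48 ± 0.09. Rises were spread over the complexes, with 12 of 33 complex I genes, 4 of 7 complex III genes, 7 of 12 cytochrome c oxidase genes and 10 of 16 ATP synthase genes. Mitochondrial ribosomal protein genes rose at about the background share, with 11 of 71 higher and 3 lower (median 0.02); Mrps30 rose by 0.38 ± 0.07.

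Genes of protein entry into the endoplasmic reticulum rose in 19 of 32 cases and none fell (median 0.22). Ost4, a small subunit of the oligosaccharyltransferase, ran from 8.54 through 9.58 to 10.51 at the end and from 9.82 through 10.56 to 11.33 at recovery, a rise of 0.91 ± 0.15 (1.88-fold, adjusted p = 8.75e-06). Dad1, of the same enzyme, rose by 0.64 ± 0.12, the signal recognition particle gene Srp72 by 0.64 ± 0.12 and its receptor gene Srpra by 0.57 ± 0.10. All 19 recovery arrays lay over the end mean in the mean signal of this list. Chaperone genes rose in 14 of 35 cases and none fell (median 0.09), led in size by those of the endoplasmic reticulum: Hsp90b1 by 0.74 ± 0.13, Hspa5 by 0.69 ± 0.13 and Calr by 0.69 ± 0.14. The cytosolic Hspa8 rose by 0.39 ± 0.06, and each of its 8 probe sets was higher, by 0.26 to 0.40.

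Protein breakdown genes showed smaller rises. Of 46 proteasome genes 15 rose and 1 fell (median 0.08), with Psma2 at 0.36 ± 0.08 and Psmb7 at 0.34 ± 0.08. Of 27 ubiquitin-conjugating enzymes 9 rose and 4 fell (median 0.04). The widely expressed Ube2d3 rose by 0.47 ± 0.11, while its testis relative Ube2d2b ran from 8.71 through 9.35 to 10.19 at the end and from 8.80 through 9.00 to 9.38 at recovery, a fall of 0.34 ± 0.10 (adjusted p = 0.00721).

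Antioxidant and detoxifying enzymes rose in 18 of 49 cases and fell in 4 (median 0.13). Glutathione transferases made up most of them: 11 of 16 rose and none fell (median 0.31), against 7 of the other 33, a division made after the values were seen. Gstm1, which conjugates glutathione to electrophiles, ran from 11.05 through 11.78 to 12.47 at the end and from 11.92 through 12.34 to 12.73 at recovery, a rise of 0.53 ± 0.11 (1.45-fold, adjusted p = 0.000168). Gsta1 rose by 0.66 ± 0.14, Gstm7 by 0.59 ± 0.13, catalase (Cat) by 0.40 ± 0.07 and Gclc, of glutathione synthesis, by 0.32 ± 0.07. Transferases of 1 class are close in sequence, and their probe sets may share signal. Heme oxygenase 1 (Hmox1), a gene of oxidative stress, did not pass at -0.08 ± 0.07 (adjusted p = 0.432).

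Fatty acid genes rose in 8 of 29 cases and fell in 4 (median 0.11, but -0.02 in numbers 11 to 20 alone). Acsl4, which activates arachidonic acid, ran from 6.46 through 7.03 to 8.19 at the end and from 7.24 through 8.00 to 8.70 at recovery, a rise of 0.94 ± 0.16 (1.92-fold, adjusted p = 9.38e-06). The elongase Elovl6 rose by 0.94 ± 0.16 from a median of 8.02 to 9.01, and Elovl5 by 0.40 ± 0.09. Acsbg2, described above among sperm genes, and Acsl6 (-0.17 ± 0.04) fell.

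In the stress and growth lists 8.57% to 21.6% of genes rose and 3.03% to 17.1% fell, against 16.0% and 12.3% of all genes. Immediate early genes, which answer handling and injury within minutes, rose in 3 of 33 cases and fell in 1, by at most 0.21 on the log2 scale in any member; Dusp2, Dusp6 and Fosl1 lost their calls in 20, 19 and 4 of the 39 fits without 1 array, and Klf6 rose by 0.15 ± 0.04. In the p53 and DNA damage list 4 of 32 rose and 4 fell: Ccng1 rose by 0.51 ± 0.10 and Rrm2b by 0.21 ± 0.05, while Cdkn1a, the main inhibitor of cyclin kinases under p53, fell by 0.18 ± 0.05 and Bax by 0.17 ± 0.05. The repair gene Mgmt, which removes alkyl groups from DNA, did not pass at -0.01 ± 0.05. Among 37 cell death genes 8 rose and 6 fell. The survival gene Bcl2 rose by 0.56 ± 0.12 and Cflar, which blocks caspase 8, by 0.33 ± 0.06, and Hrk, which promotes death, fell by 0.20 ± 0.05. Cell cycle genes fell in 6 of 35 cases and rose in 3: Cdc6, Foxm1 and Ccnb2 fell by 0.23 ± 0.05, 0.22 ± 0.06 and 0.17 ± 0.05, and Ccnd2 rose by 0.41 ± 0.07 with 15 recovery arrays over every end array.

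Replicate numbers 1 to 10 and 11 to 20 differed in how many calls they gave. Numbers 1 to 10 alone (10 against 10 arrays) gave 4768 probe sets past an adjusted p of 0.05, and numbers 11 to 20 alone (10 end and 9 recovery arrays) gave 385, although the median SE was 0.08 in the first and 0.09 in the second. Of the 2314 genes that rose in the whole comparison, 2306 had a positive difference in numbers 11 to 20, with a median of 0.24 against 0.32 in numbers 1 to 10; of the 1787 that fell, 1778 had a negative one, with medians of -0.14 and -0.20. On their own, numbers 1 to 10 called 1580 of the genes that rose and 925 of those that fell, and numbers 11 to 20 called 204 and 12. Since the genes were chosen on both sets pooled, these directions are a description. The difference between the sets was tested directly, as an interaction of number set and time: 0 of 29214 probe sets passed in limma, 2917 had an unadjusted p under 0.05, and the lowest adjusted p was 0.292. Akap4 differed by -1.04 in the first set and -0.41 in the second, Defb43 by 1.64 and 0.85, Spata19 by -1.12 and -1.06, and Fcer1g by 0.74 and 1.09. For Akap4 and Defb43 the sets lay further apart at the end of exposure than at recovery. Akap4 read 9.62 to 11.06 and 8.63 to 10.67 at the end, and 8.55 to 9.84 and 8.35 to 9.94 at recovery. Defb43 read 8.24 to 10.17 and 8.98 to 10.96 at the end, and 10.00 to 11.39 and 10.09 to 11.17 at recovery. By list, the medians in numbers 1 to 10 and 11 to 20 were -0.24 and -0.05 for spermatid chromatin, -0.45 and -0.25 for the fibrous sheath, -0.26 and -0.03 for dense fibres, -0.20 and -0.07 for the axoneme, -0.18 and -0.08 for the acrosome, -0.19 and -0.07 for spermatid regulators and -0.27 and -0.11 for the Spata genes. No member of these 7 lists passed in numbers 11 to 20 alone, where 96 of all 29214 probe sets were lower and 289 higher. With so few lower calls in that set, the absence of calls is not a result about these lists. For T and natural killer cell genes the medians were 0.21 and 0.18, for ribosomal genes 0.16 and 0.16 and for the respiratory chain 0.20 and 0.19. What the 2 sets of numbers stand for is not given in the labels.

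**Figure D4:**
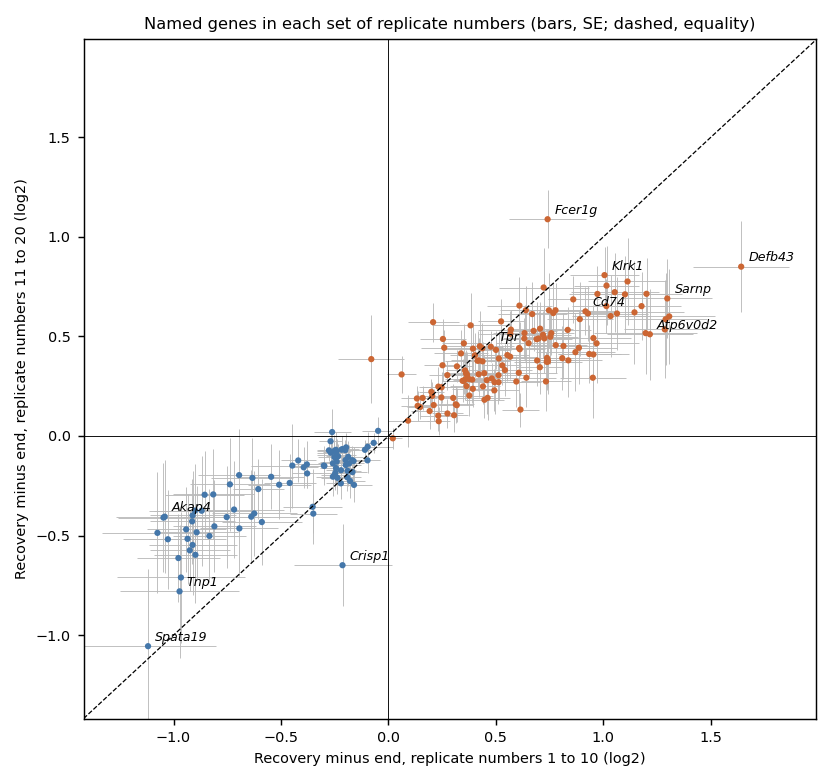
Difference of recovery minus end of exposure on the log2 scale for the 222 named genes, in replicate numbers 1 to 10 (horizontal axis) and 11 to 20 (vertical axis), with SE bars; orange genes were higher and blue genes lower in the whole comparison, and the dashed line marks equal differences. Most points lie in the same quadrant in both sets and nearer to the horizontal axis than the line, such as Defb43 at 1.64 and 0.85.

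DBCP rats also had a recovery and an end-of-exposure group, measured on other arrays (19 at recovery, 20 at the end). Their difference thus shares no sample with that of the corn oil rats. Whether their recovery was equally long is not stated in the labels. In them 1309 genes rose (9.02%) and 1077 fell (7.42%). Both groups called 820 genes higher, which is 35.4% of those of the corn oil rats and 62.6% of those of the DBCP rats, and 459 lower, which is 25.7% and 42.6%. No gene was called in opposite directions. Of the 2314 genes that rose in corn oil rats 2201 had a positive difference in DBCP rats, with a median of 0.16, and of the 1787 that fell 1635 had a negative one, with a median of -0.09.

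The values of both intervals are given side by side, and no difference between them was tested over a gene list. Cd74 differed by 0.79 in DBCP rats against 0.77 in corn oil rats, Clec7a by 0.87 against 0.84 and Klrk1 by 0.71 against 0.91. Of 42 T and natural killer cell genes 20 rose after DBCP against 24 after corn oil. Fibrous sheath genes had a median of -0.76 after DBCP against -0.31: Akap4 differed by -1.37 against -0.72 and Gapdhs by -1.11 against -0.56. Respiratory chain genes had a median of 0.03 after DBCP with 3 of 73 higher, against 0.18 with 36 higher, ribosomal genes 0.05 with 4 of 72 higher against 0.16 with 32, and proton pump and basal cell genes 0.10 with 3 of 30 higher against 0.22 with 18. The difference between the 2 intervals was tested for every probe set: 0 of 29214 passed (0%), 3170 had an unadjusted p under 0.05, and the lowest adjusted p was 0.454. So no gene was shown to change by a different amount under the 2 treatments. At an unadjusted p under 0.05 the interaction took in 10.9% of all probe sets, and by list 21 of 73 respiratory chain genes, 21 of 72 ribosomal genes, 5 of 11 fibrous sheath genes, 5 of 17 dense fibre genes, 5 of 32 genes of entry into the endoplasmic reticulum, 2 of 42 T and natural killer cell genes, 1 of 43 axonemal genes and 0 of 20 class II genes.

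**Figure D5:**
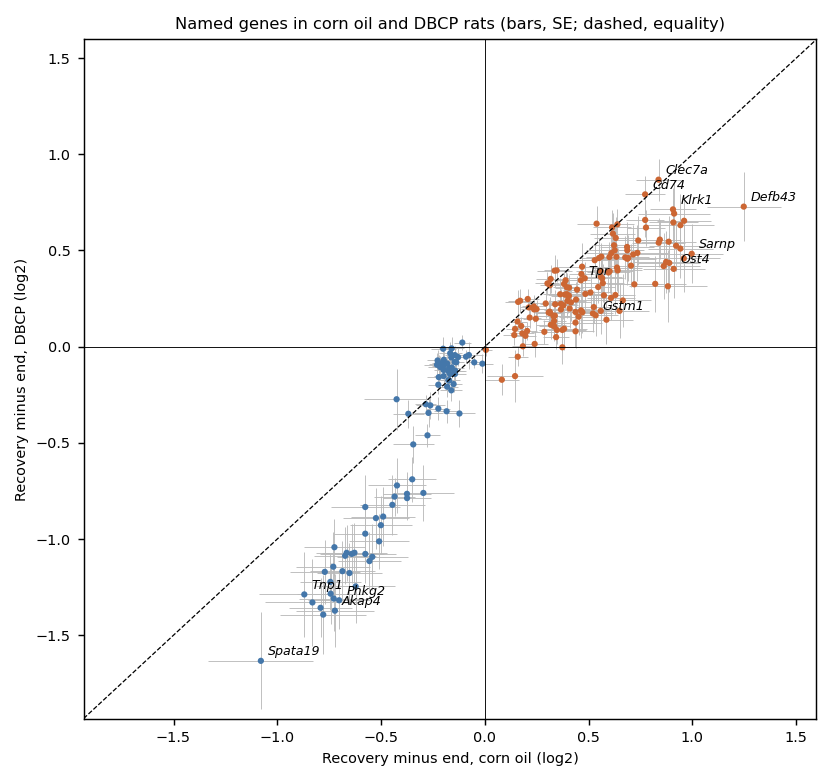
Difference of recovery minus end of exposure on the log2 scale for the 222 named genes in corn oil rats (horizontal axis) and DBCP rats (vertical axis), with SE bars; orange genes were higher and blue genes lower in corn oil rats, the values by which they were chosen, and the dashed line marks equal differences. Spermatid genes such as Akap4 (-0.72 and -1.37) lie under the line, Cd74 (0.77 and 0.79) lies on it, and Ost4 (0.91 and 0.40) lies under it.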

How the data were processed

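Sperm RNA of 78 rats' arrays was measured as deposited log2 signals, 1 column per array. The submitters' processing notes name limma; how the probes were corrected, normalized and summarised is not stated in the labels. No value was transformed before the main test. Gene symbols came from the platform annotation (1 symbol for 15310 probe sets, several for 323, none for 13581), updated by Entrez ID for 15279; a gene was read from its probe set of highest mean. A linear model with 4 group means over 78 arrays was fitted in limma 3.58.1 (R 4.3.3), with empirical Bayes variances and Benjamini-Hochberg adjustment over 29214 probe sets; it was tested on simulated data. Since no counts exist, the number of arrays limits precision. Named genes were the 15 largest rises and the 15 largest falls, the 10 of smallest p, genes without overlap, up to 5 passing genes per list (the 2 of highest mean where none passed) and a fixed set (Prm1, Prm2, Tnp1, Tnp2, Akap4, Odf1, Smcp, Ldhc, Crisp1, Clu, Gstm1, Hmox1, Cdkn1a, Mgmt); list members printed without an SE were chosen after their values were seen. The comparison and the 42 lists were chosen with earlier results of these data known. Some genes are in more than 1 list, so the 1375 list entries on the array stand for 1337 genes. Scaling, filters, array weights, number sets, blocks and single arrays were varied. Correlations used 100000 permutations (scipy 1.17.1). Clu did not pass (0.08 ± 0.08, adjusted p = 0.476).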

Additional observations from a re-analysis of the deposited data

How the results depend on the processing

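The 7108 probe sets that passed became 4621 among those with 1 gene symbol and 4382 with 1 probe set per gene, where fewer were tested; 385 in replicate numbers 11 to 20 alone, the cause of which was not tested; and 3325 at an adjusted p of 0.01. The higher ones (3370) became 289 in numbers 11 to 20 and 2124 at 0.01. The lower ones (3738) became 2218 with each array centred on its median, the cause of which was not tested, 2034 among those with 1 symbol, 1969 with 1 probe set per gene, 2255 in numbers 1 to 10, 96 in numbers 11 to 20 and 1201 at 0.01. Leaving out each of the 39 arrays in turn gave 5802 to 7849 in all, 2967 to 3627 higher and 2835 to 4257 lower, and 24 to 26 gene lists with more rises than falls. With the replicate number as a block 5889 passed (3017 higher, 2872 lower), and 10 of the 214 named genes that passed lost their call; the numbers were not used as a pairing because same-numbered arrays correlated from -0.35 to 0.48 (5 of 19 over 0.1). Of those 214 genes, 4 lost the call without the 6 arrays of low weight (7653 probe sets passed), 15 after median centring, 6 after quantile normalization and 174 in numbers 11 to 20 alone. The balance turned from more lower to more higher calls under both scalings. The medians of 13 of the 42 lists changed sign in at least 1 setting, 1 of them (ubiquitin-conjugating enzymes) only without 1 array. In numbers 11 to 20 the beta-defensin median went from 0.05 to -0.05, the fatty acid median from 0.11 to -0.02, the neutrophil median from -0.03 to 0.05 and the complement median from -0.01 to 0.07; in numbers 1 to 10 the immediate early median went from 0.06 to -0.02. With bright probe sets alone that of ion transport and motility genes went from -0.04 to 0.13. Among the named genes, Mgmt changed sign under scaling (-0.01 to 0.02).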
